A study of Drosophila melanogaster with 24 samples.

Results

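Maltases and amylases are the enzymes with which a fly cuts the starch, maltose and sucrose of its food into sugars that the gut can take up. Of 9 listed genes of this kind, 7 had a probe set that named them alone and are the members described here: Mal-A1, Mal-A2, Mal-A3, Mal-A4, Mal-B1, Mal-B2 and tobi (target of brain insulin). Amy-p and Amy-d, the proximal and distal amylase genes, shared 1 probe set that named both, so that neither was a member. The values of that probe set are given for the pair, outside every count. The genes were listed by name, with no measured value in the rule, among 13647 probe sets of the array that named 1 gene and 18769 in all.

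The flies came from 6 lines of Drosophila melanogaster that had been founded from one outbred base population. In lines H1 and H2 the more aggressive males had been bred from, in L1 and L2 the less aggressive ones, while C1 and C2 had been kept without selection. RNA was taken from whole virgin flies aged 3 to 7 days after a short period without food, with 2 arrays for each line and sex, 24 in all. Every value is therefore a property of the whole body, in which fewer cells of a type and less RNA per cell cannot be told apart, and selection was replicated by 2 lines per group. One male array carried a title that named group 2 and line 1 of the high group at once, and it was read as H2 male replicate 1, the only place left in the design.

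The Mal-A and Mal-B genes encode alpha-glucosidases, which release glucose from the end of short sugars, and most of them are known from the midgut, the absorbing part of the fly's intestine. Amylase acts one step earlier and cuts starch into maltose. tobi encodes a glucosidase-like protein of gut and fat body that is known to answer to insulin-like peptides and to adipokinetic hormone, the fly counterpart of glucagon. In flies fed on sugar, transcription of amylase and maltases is known to be repressed, and the Activin-like ligand daw, the Smad protein Smox and the transcription factor sug belong to that response. These 3 are also the only ones called for H against L among 13 tested genes of a list given below, against 7.63% of all probe sets tested. In the same list babo (-0.15), Mondo (-0.05) and bigmax (-0.00032) were not called. For H against C, Smox was called, and daw and sug were not. A link of daw, Smox and sug to the members was not tested. Mal-A1 to Mal-A4 lie next to each other on chromosome arm 2R with Mal-A5 following, Mal-B1 and Mal-B2 are neighbours on 2L, tobi lies on 3R, and Amy-p and Amy-d lie on 2R with Spn53F between them.

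Signal, the intensity that the authors' software gave each probe set, has no unit and was not compared between probe sets. All 7 members and the amylase pair passed the filter on low Signal. Median Signal over all probe sets was 124.8 to 143.4 on male arrays and 71.4 to 118.9 on female arrays. The 2 arrays of a line and sex correlated at 0.972 to 0.990 over probe sets. In C1 female replicate 1, the summed Signal of 5 male accessory gland and testis genes was 2022.8, against at most 99.8 in every other female array, and L1 female replicate 1 had raised low Signals. Of 10 midgut genes other than carbohydrases, 8 had a tested probe set, and their summed Signal was 47961 to 61114 in males and 46587 to 73827 in females. The gut was thus represented in every array, as far as these trypsins and the lipase gene mag show it.

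Males had more transcript than females for most members under the authors' scaling. The difference (male minus female) was called at an adjusted p under 0.001 for 6 of the 7 members, against 75.5% of all probe sets tested. It was called as higher in males for 5 of them, Mal-A1, Mal-A2, Mal-A3, Mal-A4 and tobi, against 30.2% of all probe sets. The median difference was 0.58 over the members and -0.18 over all probe sets tested. Mal-B1 went the other way and was lower in males.

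The widest gap was that of tobi. Its Signal ran from 3805 through a median of 5322 to 9240 over 12 male arrays, and from 1673 through 2581 to 5406 over 12 female arrays. In all 6 lines both male arrays lay above both female arrays, and the log2 difference was 0.99 ± 0.07 (SE, adjusted p = 1.62e-09). Mal-A4 ran from 436.8 through 714 to 948.8 in males and from 264.5 through 489.5 to 647.6 in females, a log2 difference of 0.61 ± 0.06 (adjusted p = 4.49e-08). Mal-A1 and Mal-A3 also had both males above both females in all 6 lines, with log2 differences of 0.58 ± 0.07 and 0.65 ± 0.09. Such a separation in all 6 lines was seen in 24% of all probe sets tested. For Mal-A2 it held in 5 lines, with L2 the exception, and the difference was smaller at 0.34 ± 0.06 (adjusted p = 6.08e-05).

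Mal-B1 had a Signal of 437.7 to 1588.4 in males, with a median of 596.4, and of 546.5 to 1506.5 in females, with a median of 1004. Both males lay below both females in only 2 lines, and above them in H2. Over all lines the log2 difference was -0.44 ± 0.09 (adjusted p = 0.000287). With H1 male replicate 1 and H2 male replicate 1 exchanged, Mal-B1 was not called by sex (adjusted p = 0.0193). Mal-B2, its neighbour, differed by 0.15 ± 0.06 (adjusted p = 0.0421) and the amylase pair by 0.18 (adjusted p = 0.0317), neither past the threshold.

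**Figure D1:**
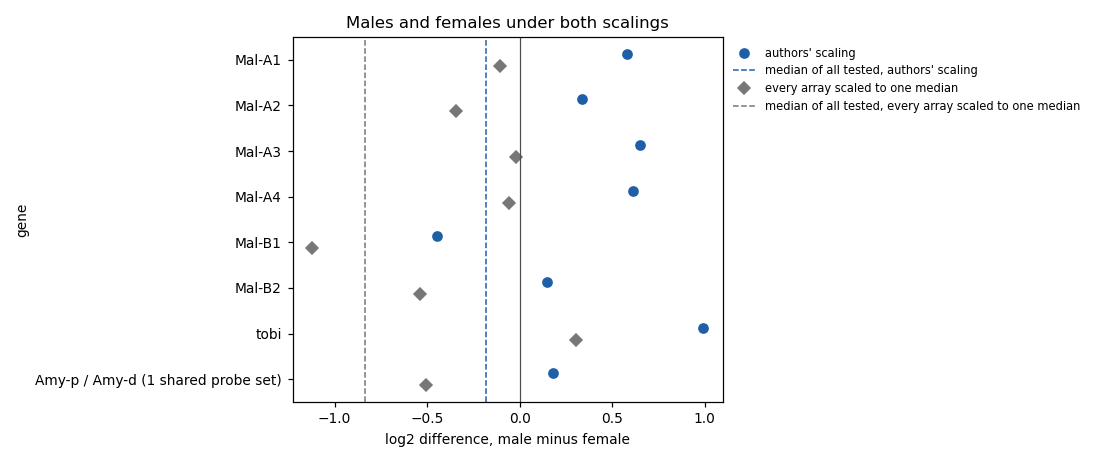
Log2 difference between males and females (male minus female, horizontal axis) for each gene under the authors' scaling (circles) and with every array scaled to one median (diamonds). Dashed lines mark the median over all tested probe sets, at -0.18 and -0.84. The members keep nearly the same distance from the dashed line under both scalings, while their sign against 0 changes for 5 of 7.

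The sign of these differences depended on how male and female arrays were put on one scale. Scaling every array to one median moved the median over all probe sets tested by -0.66, and Mal-A1, Mal-A2, Mal-A3, Mal-A4, Mal-B2 and the amylase pair then had differences below 0, with 3 members called, Mal-A2, Mal-B1 and Mal-B2, each lower in males. Relative to the median of all probe sets, however, the members differed by 0.76 for Mal-A1, 0.52 for Mal-A2, 0.83 for Mal-A3, 0.79 for Mal-A4, 0.33 for Mal-B2 and 1.17 for tobi under the authors' scaling. With one median these were 0.73, 0.49, 0.82, 0.78, 0.30 and 1.14 in the same order of genes. Mal-B1 lay below that median under both, by -0.26 and -0.29. Of the 8 midgut genes, 3 were called by sex, against 75.5% of all probe sets tested. They were thetaTry, etaTry and iotaTry, each lower in males, and the list's median was -0.21. The summed Signal of 6 fat body genes was 20060 to 27497 in males and 17372 to 23717 in females. Of the 4 tested, only the storage protein gene Lsp2 was called by sex, higher in males by 1.73, and the list's median was 0.13. The part of these tissues in the sex differences was not tested.

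**Figure D2:**
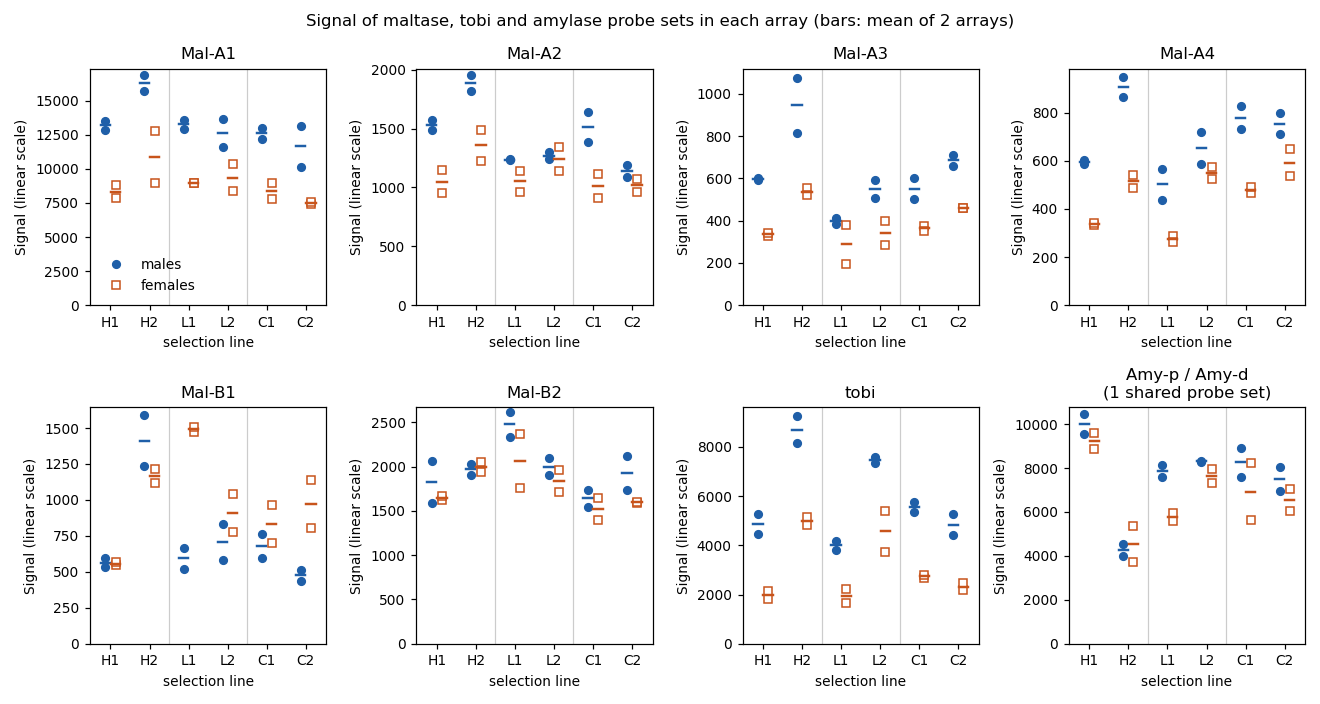
Signal (vertical axis, linear and starting at 0) of each gene in the 24 arrays, by line (horizontal axis), with males as filled circles and females as open squares; short bars are means of 2 arrays. tobi stands at 8697 and 7459 on average in H2 and L2 males, against 3996 to 5559 in the males of the other 4 lines, and the amylase pair is lowest in H2 in both sexes.

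The 6 lines differed past the threshold in tobi, Mal-A4 and Mal-B1. A test for any difference among the lines called these 3 of the 7 members at an adjusted p under 0.001, against 6.71% of all probe sets tested. The adjusted p was 1.03e-05 for tobi, 5.65e-05 for Mal-A4 and 0.000834 for Mal-B1. It was 0.00213 for Mal-A3, 0.00945 for Mal-A2, 0.0276 for Mal-B2 and 0.0547 for Mal-A1. The amylase pair had 0.000242. No member was called for a line difference that changed with sex, against 0.0257% of all probe sets, and Mal-B1 came nearest with an adjusted p of 0.0886 (unadjusted 0.00128). With H1 male replicate 1 and H2 male replicate 1 exchanged, no member was called by line, and without line L1 only 1 was.

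tobi was high in 1 line of each selected group. H1 males had Signals of 5290.8 and 4461.1 and H2 males 9240.3 and 8152.8. L1 males had 4187.7 and 3805.1 and L2 males 7343.1 and 7575.3, whereas C1 males had 5765.5 and 5353 and C2 males 5273.4 and 4409.5. The females kept the same 2 lines on top, with 4819.5 and 5158.7 in H2 and 3727.1 and 5405.6 in L2. The other females lay between 1673 in L1 and 2787 in C1. From high to low the male lines ran H2, L2, C1, H1, C2, L1, of which only H1 and C2 had overlapping arrays, and the highest line mean was 2.18 times the lowest. Among females the ratio was 2.56, and H2 overlapped with L2, and L1 with H1 and with C2.

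Mal-A4 was lowest in L1 and next lowest in H1 in both sexes. Its Signals were 601.7 and 585.8 in H1 males and 866.9 and 948.8 in H2 males. L1 males had 436.8 and 567.6 and L2 males 718.4 and 588.6. C1 males had 826.7 and 732.4 and C2 males 797.9 and 709.6, so that only H2 among the selected lines stood above the C lines. In females the values were 334.7 and 340.4 in H1, 488.5 and 542.6 in H2, 289.1 and 264.5 in L1, and 524 and 573.8 in L2. C1 females had 466.4 and 490.5 and C2 females 534.8 and 647.6, and all L1 and H1 females lay below every other female array.

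Mal-B1 had its extremes in different lines in the 2 sexes. H2 males had 1235.3 and 1588.4, above all other males, which lay between 437.7 and 834.9. Among females, L1 led with 1475 and 1506.5, followed by H2 with 1213.9 and 1120, and H1 was lowest with 546.5 and 565.3. L2 females had 778.5 and 1044.2, C1 females 702.3 and 963.8, and C2 females 807.9 and 1136.5, 3 lines whose arrays overlapped. The highest line mean was 2.97 times the lowest in males and 2.68 times in females.

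The remaining members did not pass the line test. Mal-A3 line means spanned 2.37-fold in males, wider than those of tobi and Mal-A4, and 1.86-fold in females. Mal-A1 line means spanned 1.40-fold in males and 1.45-fold in females, and Mal-B2 line means 1.51-fold and 1.36-fold. H2 was the highest line in both sexes for Mal-A1, Mal-A2, Mal-A3 and tobi, and in males also for Mal-A4 and Mal-B1. L1 was the highest line in both sexes for Mal-B2. Most neighbours in these orders overlapped, and for Mal-A2 in females all 5 neighbouring pairs of lines did.

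The 2 lines of one selection group were then set against each other, a comparison added after the data had been seen. Between H1 and H2, 4 of the 7 members were called at an adjusted p under 0.05, against 4.51% of all probe sets tested, and all 4 were lower in H1. Mal-B1 differed by -1.17 ± 0.16 (H1 minus H2, SE, adjusted p = 0.000472), tobi by -1.09 ± 0.12 (adjusted p = 0.000107), Mal-A4 by -0.59 ± 0.10 (adjusted p = 0.0025) and Mal-A3 by -0.64 ± 0.16 (adjusted p = 0.0311). Mal-B1, tobi and Mal-A4 were also called within each sex. For Mal-A3 the call was lost without any 1 of 7 arrays, 4 of H1 and 3 of H2 (adjusted p of 0.0706 to 0.134).

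The amylase pair showed the opposite order in these 2 lines. Its Signals were 10443.6 and 9530.8 in H1 males and 8848.7 and 9592.2 in H1 females, against 4004.6 and 4554.3 in H2 males and 3737.3 and 5377.1 in H2 females. No H2 array reached any array of another line, the lowest of which was 5581.1 in an L1 female. The difference H1 minus H2 was 1.13 ± 0.13 on the log2 scale, or 2.19-fold (adjusted p = 0.000104). Both H1 males lay above every other male array, and both H1 females above every other female array. H2, the line in which amylase was lowest, was thus the line in which 4 members were highest in both sexes.

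These differences rest in part on the label of 1 male array. With H1 male replicate 1 and H2 male replicate 1 exchanged, H1 minus H2 was -0.57 for Mal-B1 (adjusted p = 0.688), -0.69 for tobi (0.382), -0.33 for Mal-A4 (0.618), -0.43 for Mal-A3 (0.64) and 0.44 for the amylase pair (0.79), and none was called. As labelled, the 2 arrays of H1 males correlated at 0.990 and those of H2 males at 0.987, and their mean gap over the 7 members and the amylase pair was 0.14 and 0.19 on the log2 scale. After the exchange the correlations were 0.979 and 0.980 and the gaps 0.67 and 0.68, so that both male pairs were closer as labelled. The females do not depend on that label. In them H1 minus H2 was -1.05 ± 0.22 for Mal-B1 (adjusted p = 0.0224), -1.34 ± 0.18 for tobi (0.000757), -0.59 ± 0.14 for Mal-A4 (0.0405) and 1.04 ± 0.18 for the amylase pair (0.00625).

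L1 and L2 differed in tobi, by -1.06 ± 0.12 (L1 minus L2, adjusted p = 4.5e-05), and in Mal-A4, by -0.66 ± 0.10 (adjusted p = 0.000386). These 2 of the 7 members stood against 14.2% of all probe sets tested. In females, Mal-B1 ran the other way with 0.72 ± 0.22, short of the threshold (adjusted p = 0.0767). Between C1 and C2, no member was called, against 9.34% of all probe sets. There the differences ran from -0.32 for Mal-A3 to 0.22 for tobi.

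**Figure D3:**
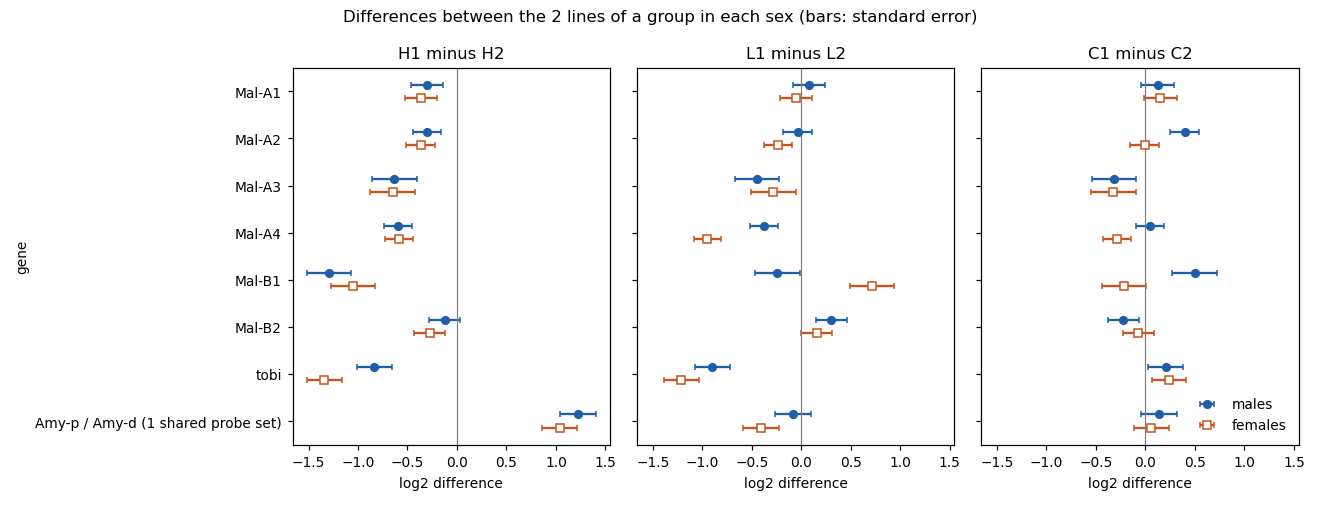
Log2 difference between the 2 lines of a group (horizontal axis, line 1 minus line 2) for each gene, in males (filled circles) and females (open squares); bars are standard errors. In the H lines Mal-B1 and tobi lie near -1 and the amylase pair near 1 in both sexes, while no member was called between the C lines.

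Across the 24 arrays, with the mean of each sex removed, the Signals of the amylase pair correlated negatively with those of all 7 members, from -0.72 with Mal-B1 to -0.28 with Mal-B2. Mal-A1 and Mal-A2, which are neighbours, correlated at 0.77, and Mal-A3 and Mal-A4, also neighbours, at 0.72. The neighbours Mal-A2 and Mal-A3 gave 0.56, whereas tobi, on another chromosome, gave 0.63 with Mal-A2 and with Mal-A4. Mal-A1 with Mal-A4 gave 0.10 and Mal-B1 with Mal-B2 0.20. These correlations describe 24 arrays that share 6 lines and 1 scaling and carry no test.

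High and low aggression were compared by the mean of H1 and H2 against the mean of L1 and L2. A member was called if its adjusted p was under 0.05 and all 4 differences between an H line and an L line had one sign. Mal-A2 and Mal-A3 met this, 2 of the 7 members against 7.63% of all probe sets tested, and both were higher in H. The median difference was 0.17 over the members and -0.02 over all probe sets tested.

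Mal-A3 showed the clearest difference. Its Signals were 602.7 and 594.3 in H1 males, 815.6 and 1075.7 in H2 males, 382.1 and 414.5 in L1 males, and 591.5 and 506.4 in L2 males. Every H male thus lay above every L male, narrowly so for H1 replicate 2 and L2 replicate 1. In females the groups overlapped, with 329.5 and 343.8 in H1 and 553.4 and 521.9 in H2, against 382 and 196.7 in L1 and 286.1 and 397.8 in L2. The log2 difference (H minus L) was 0.56 ± 0.11 (SE, adjusted p = 0.00431). Without L2 female replicate 1 the lines no longer had one sign (0.51, adjusted p = 0.0134), and without line H2 the difference was 0.24 (adjusted p = 0.347).

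The mean Signal of Mal-A2 was 1709 ± 218 for H males, against 1254 ± 31 for L males, and 1202 ± 224 for H females, against 1146 ± 154 for L females (SD, n = 4 arrays each). H males lay above all L males, from 1488.6 to 1957.3 against 1232.8 to 1300.2, whereas the females overlapped. The difference over both sexes was 0.25 ± 0.07 (adjusted p = 0.0414), and it lost its call without any 1 of 14 of the 24 arrays (adjusted p of up to 0.105). Without line H2 it was 0.080 (adjusted p = 0.656). Mal-A4 differed by 0.23 (adjusted p = 0.0545). tobi, at 0.17 (adjusted p = 0.267), was higher in H2 than in L1 and lower in H1 than in L2.

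Against the unselected lines, H was higher in Mal-A1 and Mal-A2, 2 of 7 members called against 9.11% of all probe sets tested. The median difference (H minus C) was 0.25 over the members and -0.03 over all probe sets. Mal-A2 differed by 0.30 ± 0.07 (adjusted p = 0.0152). Its Signals were 1568.7, 1488.6, 1822.7 and 1957.3 in H males, against 1637.2, 1388.1, 1194.3 and 1089.6 in C males. In females they were 950.6, 1146.1, 1491.1 and 1222 in H, against 914.9, 1117.1, 964.1 and 1070.4 in C. The 2 groups overlapped in each sex, in males through H1 and C1 and in females through H1 and both C lines. The call was lost without C1 female replicate 1 (0.26, adjusted p = 0.04), C1 male replicate 2 (0.27, 0.0371) or H1 female replicate 2 (0.26, 0.0442) since the line differences then no longer had one sign.

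Mal-A1 was 13536.2, 12839.9, 16870.9 and 15665.8 in H males, against 12193.5, 12978.3, 13167 and 10148.7 in C males, and the 2 groups overlapped. The difference over both sexes was 0.27 ± 0.08 (adjusted p = 0.0496), and it was lost without any 1 of 19 of the 24 arrays (adjusted p of up to 0.121). tobi differed by 0.32 ± 0.09 (adjusted p = 0.0289) but was not called, since H2 lay above and H1 below both C lines. Without line H2, H minus C was 0.13 for Mal-A2, 0.10 for Mal-A1 and -0.22 for tobi, none of them called. Mal-A4 differed by -0.20 (adjusted p = 0.088) with all lines and by -0.49 (adjusted p = 0.00423) without H2.

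Against the unselected lines, L was lower in Mal-A3 and Mal-A4 and higher in Mal-B2, 3 of 7 members called against 5.55% of all probe sets tested. The median difference (L minus C) was 0.15 over the members and -0.0068 over all probe sets. Mal-A4 differed by -0.42 ± 0.07 (adjusted p = 0.00145), and 3 of the 4 L males, at 436.8 to 588.6, lay below all C males, at 709.6 to 826.7, with 1 L2 array inside their range. Without line L1 this difference was -0.092 (adjusted p = 0.567). It also lost its call without C1 male replicate 1 (-0.40, adjusted p = 0.00477), L2 female replicate 1 (-0.41, 0.00519) or L2 male replicate 2 (-0.39, 0.0049), since the line differences then no longer had one sign.

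Mal-B2 was 2340.5, 2612.9, 2093.6 and 1910.3 in L males, against 1550.3, 1732.1, 2119.8 and 1736 in C males. In females it was 1763, 2370.8, 1712.2 and 1958.8 in L, against 1648.8, 1393.6, 1592 and 1599.1 in C. All L females lay above all C females, and among males 1 C2 array reached into the L range. The difference was 0.32 ± 0.08 (adjusted p = 0.0204), lost without any 1 of 5 arrays, C1 male replicate 1, L2 male replicate 1, L1 male replicate 2, C2 male replicate 2 or L2 female replicate 2 (adjusted p of 0.0508 to 0.0564). With every array scaled to one median it was 0.25 (adjusted p = 0.261). Mal-A3 differed by -0.40 ± 0.11 (adjusted p = 0.0406) and lost its call without any 1 of 18 of the 24 arrays (adjusted p of up to 0.103). The 3 contrasts share lines, so that a low L counts in both H minus L and L minus C.

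Selection acted on lines and not on arrays, and with the line as the replicate no group difference was found. In a limma fit to the 6 line means, 0 of the probe sets tested had an adjusted p under 0.05 in any of the 3 contrasts, and 597, 607 and 521 had an unadjusted p under 0.05 for H against L, H against C and L against C. No member was among these, the lowest p being 0.0623, 0.104 and 0.0653 in the 3 contrasts. With line as a random block, no member was called in any of them either. The 2 arrays of a line and sex were separate samples of flies from that line, by the study's methods, and p-values over arrays measure only the spread between such samples.

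**Figure D4:**
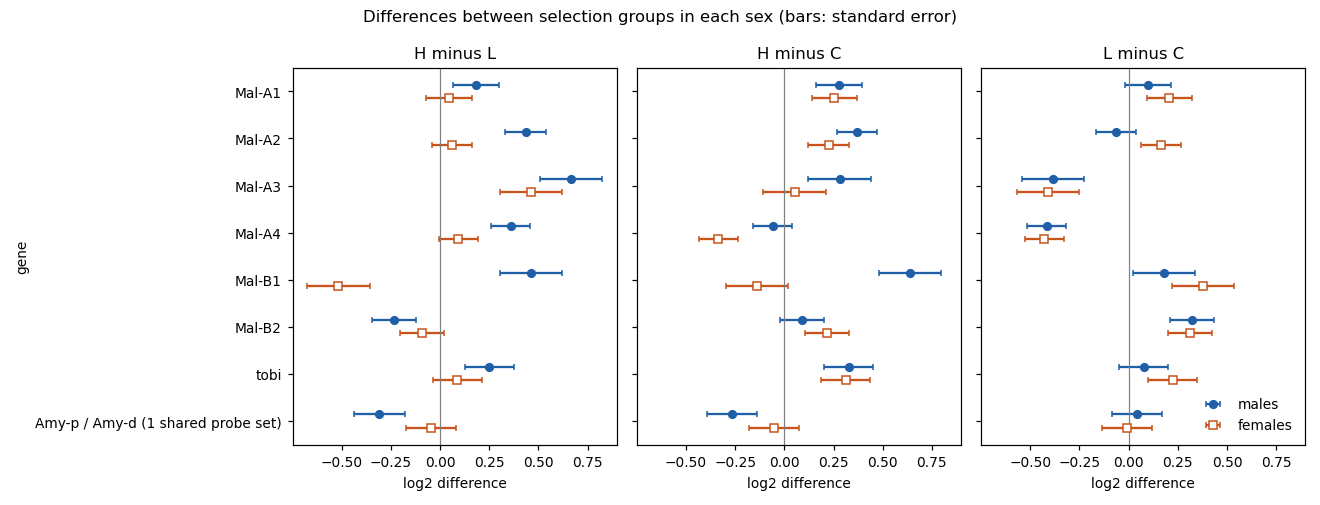
Log2 difference between selection groups (horizontal axis) for each gene, in males (filled circles) and females (open squares); bars are standard errors over arrays. Mal-A3 lies at 0.66 in males and 0.46 in females for H minus L, Mal-A4 at -0.42 and -0.43 for L minus C, and Mal-B1 on opposite sides of 0 in the 2 sexes for H minus L and H minus C.

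Taken by sex, the members called between H and L were Mal-A2 (0.43 ± 0.10, adjusted p = 0.0235) and Mal-A3 (0.66 ± 0.16, adjusted p = 0.0251) in males, 2 of 7 against 4.67% of all probe sets. In females none was called, against 5.78%, and the differences were 0.06 ± 0.10 for Mal-A2 and 0.46 ± 0.16 for Mal-A3 (adjusted p = 0.109). Between H and C, the males had Mal-A2 (0.37 ± 0.10, adjusted p = 0.0436) and Mal-B1 (0.64 ± 0.16, adjusted p = 0.0264), 2 of 7 against 6.59%. Calls within a sex did not ask for one sign over the lines. Mean Signal of Mal-B1 was 564.25 in H1 males and 1411.85 in H2 males, against 679.9 in C1 and 475.1 in C2 males. For Mal-A2 it was 1528.65 in H1 males and 1512.65 in C1 males. Between H and C, the females had none, against 4.37%, with 0.22 for Mal-A2 and -0.14 for Mal-B1. Between L and C, Mal-A4 was the 1 member called in each sex, at -0.42 ± 0.10 in males (adjusted p = 0.0317, against 3.41% of all probe sets) and -0.43 ± 0.10 in females (adjusted p = 0.0233, against 4.0%). In females the L lines lay apart, with 289.1 and 264.5 in L1 and 524 and 573.8 in L2. Both L2 females lay above both C1 females, at 466.4 and 490.5.

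The test of the difference between the sexes called no member in any contrast. All probe sets had 0.154% of calls for H against L, 0.429% for H against C and 0.103% for L against C. Mal-B1 had the widest gap. Its difference between H and L was 0.46 ± 0.16 in males and -0.52 ± 0.16 in females, 0.98 ± 0.22 apart (unadjusted p = 0.000552, adjusted p = 0.115). For H against C the sexes were 0.78 apart (adjusted p = 0.183). H1 and H2 differed so widely in Mal-B1 that H males covered 530.6 to 1588.4 and H females 546.5 to 1213.9, against 522.1 to 834.9 in L males and 778.5 to 1506.5 in L females. Mal-A2 differed by 0.37 ± 0.14 between the sexes for H against L (unadjusted p = 0.0208, adjusted p = 0.408). For the amylase pair the differences in males and females were -0.31 and -0.05 for H against L, -0.27 and -0.05 for H against C, and 0.04 and -0.0064 for L against C.

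The other tissues gave these values beside the group differences. The summed Signal of the 8 midgut genes was 48129 to 61114 in H males, 47961 to 59755 in L males and 54037 to 59803 in C males. In females it was 52944 to 68473 in H, 46587 to 68940 in L and 62208 to 73827 in C. The list had 1 gene called for H against L, etaTry, lower in H, 2 for H against C, mag higher and etaTry lower, and 1 for L against C, thetaTry, lower in L. Over all probe sets tested the shares called were 7.63%, 9.11% and 5.55% in the same order. For H minus L, thetaTry (0.48, adjusted p = 0.00122) and mag (0.43, adjusted p = 0.00022) were higher in H without one sign over the lines. Among the 4 fat body genes tested only Lsp2 was called, with 1.58 for H minus C and 1.38 for L minus C. The others, apolpp, bmm and plin1, had -0.15, -0.13 and -0.20 for H minus C. The median of the fat body list was -0.14 for H minus C and -0.014 for L minus C. Their part in the differences of the members was not tested.

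Other glycosidases were given by a list of 13 genes, of which 12 were tested. For H against L, 3 lysosomal-type alpha-mannosidase genes were called as higher in H, against 7.63% of all probe sets. They were LManIII (0.92), LManVI (0.76) and LManV (0.74, adjusted p = 0.000267). For H against C, 1 was called, the maltase gene Mal-A6 (0.65, adjusted p = 0.000222), against 9.11% of all probe sets. For L against C, 4 were called, against 5.55% of all probe sets, with Mal-A6 higher in L (0.45) and LManIII, LManI and LManVI lower (-0.73, -0.54 and -0.42). In this contrast LManIII stood at -1.34 in males and -0.13 in females. Its mean Signal was low, at 140.3 over male and 61.1 over female arrays, the latter near the filter's limit of 56.6. By sex, 6 of the 12 were called, against 75.5% of all probe sets tested, and 5 of them as higher in males, against 30.2%. Mal-A7 stood at 1.35 and Mal-A8 at 0.92, while Mal-A5, the next gene after Mal-A4, was lower in males at -0.50.

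Of 15 genes of sugar sensing and hormones, 13 were tested. For H against L, 3 were called, against 7.63% of all probe sets, each lower in H: daw at -0.42 (adjusted p = 0.000323), Smox at -0.40 and sug at -0.35. For H against C, Smox alone was called (-0.33), against 9.11% of all probe sets, and for L against C none, against 5.55%. The median of the 13 genes was -0.15 for H minus L. Mondo, bigmax and babo of the same list were not called for H against L (-0.05, -0.00032 and -0.15). For H minus C, daw was -0.56 in males and 0.05 in females. A link of these genes to the members was not tested. Adjusted p was above 0.05 for Akh, which encodes adipokinetic hormone, its receptor AkhR, Ilp2 and Ilp5, which encode insulin-like peptides, and InR, the insulin receptor, in all 3 contrasts. Of 10 genes of sugar transport and use, only sut1, a sugar transporter gene, was called as higher in H against L (0.26) and against C (0.29). None was called for L against C, and the shares over all probe sets are those just given. The hexokinase gene Hex-C differed by 0.31 for H minus L (adjusted p = 0.00521) without one sign over the lines.

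For each member, the 3 genes with the most similar pattern were found among 9746 genes, from which the members themselves were left out. The measure was Pearson correlation over the 24 arrays, with the mean of each sex removed. Another maltase led for Mal-A1 and Mal-A2, with Mal-A6 at 0.91 and 0.79. Mal-A1 was followed by CG4363 (0.76) and CG6409 (0.75), and Mal-A2 by BomS6 and CG33514 (0.78 each). Mal-A3 was nearest to CG5397 (0.84), Cyp6a8 and Hex-C (0.82 each). Mal-A4 was nearest to hgo (0.90), CG5618 (0.87) and Taldo (0.86), which encodes transaldolase, an enzyme of the pentose phosphate pathway. For tobi the list was CG42813 (0.85), Npc2g (0.84) and Mal-A8 (0.82). Mal-B1 had CG8661 (0.83), CG12766 and Rab19 (0.73 each), and Mal-B2 had grh (0.74), CG11413 (0.74) and ltl (0.72). These genes were picked as the most similar of many, and the correlations carry no test.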

How the data were processed

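Whole virgin flies were measured on 24 Affymetrix arrays. The deposited value of each probe set is its Signal, an intensity on a linear scale that the authors computed with MAS5, per the labels, and scaled to a common trimmed mean (497.1 to 498.5 here). Arrays give no counts, so their number limits the precision. Probe sets were named through GEO's platform annotation: 13647 had 1 gene, 402 several and 4720 none, and no gene was named from a probe set with several, except that the 1 shared by Amy-p and Amy-d is given as a pair.

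limma 3.58.1 (R 4.3.3) was fitted to log2(Signal + 16) as 12 means, one per line and sex. Probe sets were ranked by their 12th-highest Signal over the arrays and the top 11666 were tested (12th-highest Signal of at least 56.6), and p-values were adjusted over all of them by the method of Benjamini and Hochberg. Sex, line and line by sex were called at an adjusted p under 0.001. Group contrasts were called at an adjusted p under 0.05 with all 4 line differences of one sign, and contrasts within a sex, between the sexes and between lines of a group at an adjusted p under 0.05. Fold changes on this scale understate those of low values. The script was tested on simulated data. Arrays with the same replicate number did not consistently deviate together. Over 66 pairs of line and sex the correlation was -0.24 to 0.21 with a median of 0.05, and 19 were over 0.1. The replicate number was not used in the main fit, but these values do not exclude a weak shared deviation. A fit with it as a block is among the alternatives.

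Members and lists were chosen with earlier results of these data known. All members were named, each with the 3 most similar genes that are no members. Up to 4 genes per list that were called in a selection contrast were named, largest difference first. The other list genes named were chosen after their values were seen. Gene starts in the annotation served only to find the neighbours of each member, and no sequences were used.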

Additional observations from a re-analysis of the deposited data

Results flagged for a closer look

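In the 4 arrays of L males, Mal-A2 had one value apart from the others, with a gap of 0.862 of the group's range on the log2 scale, above the critical value of Dixon's test. Its Signals were 1241.9 and 1232.8 in L1 males and 1300.2 and 1239.1 in L2 males, so that the outlying array, L2 male replicate 1, was the highest of a narrow range. This was 1 of 48 groups of 4 arrays examined, and chance flags about 1 in 20.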

How the results depend on the processing

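Over the alternatives, 1869 of 2064 comparisons kept their direction and side of the threshold, and 34 of 56 results were never reversed. All 6 calls by sex were kept without any 1 array, and no member was called for line by sex in any alternative run. The group calls were the least stable. Members called without any 1 array numbered 0 to 2 for H against L, 0 to 2 for H against C and 0 to 3 for L against C. Without a filter, 1 was called for H against L and 1 for H against C. A pseudocount of 1 left 1 for H against C. Mal-A3 lost its call for L against C without a filter (adjusted p = 0.0711) and with a pseudocount of 1 (adjusted p = 0.0508). Quantile normalization within each sex left 1 for H against L. The replicate number as a block left 1 for H against C, without Mal-A1 (adjusted p = 0.0524), and changed no other count by over 1.5 times. The exchange of the doubtful labels left 0 by line, 1 for H against L and 1 for H against C. With that exchange Mal-B1 was not called by sex (-0.44, adjusted p = 0.0193). Mal-A3 was then not called for L against C (-0.40, adjusted p = 0.109). The study's rule of 2 steps called 1 for H against L, Mal-A4, with Mal-A2 and Mal-A3 lost. It called 3 for H against C, Mal-A4, Mal-B1 and tobi, with Mal-A1 and Mal-A2 lost, and 2 for L against C, Mal-A4 and Mal-B1, with Mal-A3 and Mal-B2 lost. Line as a random block and line as the replicate left 0 in each of the 3 contrasts. Without C1 female replicate 1 and L1 female replicate 1, an alternative chosen after seeing the data, 0 were called for H against C. The cause was not tested for any of these changes.

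Leaving out a whole line changed the counts further. Without H1, 5 members were called for H against L and 4 for H against C. Without H2, both calls of each contrast were lost and 1 other gene was called in each, lower in H: Mal-B1 for H against L (-0.61, adjusted p = 0.0163) and Mal-A4 for H against C. Without L1, 1 was called by line and 1 in each of the 3 contrasts: Mal-A3 for H against L, Mal-A2 for H against C and, with all 3 calls for L against C lost, tobi for that contrast (0.68, adjusted p = 0.00159). Without L2, 4 were called for H against L and 1 for H against C. Without C2, 1 was called for H against L and 0 for H against C. For L against C, Mal-A3 also lost its call without C2 (-0.24, adjusted p = 0.407), H1 (adjusted p = 0.0705) or H2 (adjusted p = 0.0528). Mal-B2 lost its call in that contrast without C1 (0.24, adjusted p = 0.141). Directions turned without H1 for Mal-A4 H minus C (0.099) and Mal-B1 H minus L (0.56). Without H2, they turned for H minus L in Mal-A1 (-0.052), Mal-A4 (-0.071), tobi (-0.37) and the amylase pair (0.39), and for H minus C in Mal-A3 (-0.15), Mal-B1 (-0.33), tobi (-0.22) and the amylase pair (0.41). Without L1, H minus L turned in Mal-A4 (-0.11), Mal-B1 (0.091) and tobi (-0.36). L minus C turned without L2 in Mal-A2 (-0.017), tobi (-0.38) and the amylase pair (-0.10), without C2 in Mal-A2 (-0.048) and the amylase pair (-0.032), and without the 2 female arrays named above in Mal-A2 (-0.016) and the amylase pair (-0.061).

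Scaling every array to one median left 3 called by sex, 1 for H against C and 0 for L against C. It turned the sex difference of Mal-A1 (-0.11), Mal-A2 (-0.34), Mal-A3 (-0.019), Mal-A4 (-0.060), Mal-B2 (-0.54) and the amylase pair (-0.51). It also turned L1 minus L2 in Mal-A1 (-0.18), H minus L in Mal-B1 (0.14) and Mal-B2 (0.0023), L minus C in Mal-A2 (-0.021) and the amylase pair (-0.055), and C1 minus C2 in the amylase pair (-0.0071). It moved the median of all probe sets tested by 0.15 for H minus L and by -0.17 for L1 minus L2. Without any 1 array, the range was -0.065 to 0.087 for Mal-A1 L1 minus L2, -0.090 to 0.035 for Mal-B1 H minus L, -0.050 to 0.085 for the amylase pair L minus C and -0.036 to 0.23 for its C1 minus C2. With single arrays and the 2 female arrays left out, it was -0.016 to 0.086 for Mal-A2 L minus C. None of these 5 differences was called.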
